A study of Mus musculus with 12 samples.

Results

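Smooth muscle and fibroblast marker genes were followed through 12 Affymetrix mouse genome arrays, per array in cultured aortic endothelial cells, where they serve as a check of other cell types, and across the genotypes of liver. The 10 genes were chosen by name from 18193 genes measured by probe sets annotated to a single gene. Acta2, Tagln, Myh11, Cnn1 and Des stand for smooth muscle, and Pdgfra, Pdgfrb, Thy1, Lum and Dcn for fibroblasts and other mesenchymal cells. All 10 had a probe set, 18 probe sets in all, and 6 of them had several. All mice were adult and of the C57BL/6J strain. Liver RNA came from wild type (WT) mice, from Dscr-1 null mice, which lack the calcineurin inhibitor encoded by Rcan1, from ApoE null mice and from mice lacking both genes (double null), with 2 arrays per genotype. The labels give HFD and 12 weeks for the liver mice, whereas the paper describes normal chow where it introduces the liver arrays. Aortic endothelial cells were isolated from each mouse and cultured for several days, and came from ApoE null and double null mice, with 2 arrays per genotype, so both groups of cultures lacked ApoE and no cultures with intact ApoE were among them. The labels restrict the knockouts to no cell type. The series text describes the samples of a genotype as independent experiments. The limma p-values reflect no more than how far arrays of the same genotype lie apart. That spread was pooled over the genotypes of a tissue and moderated across all probe sets tested.

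Smooth muscle cells of the vessel wall hold an actin and myosin apparatus whose genes are activated together by serum response factor, which binds a short sequence called the CArG box, and its partner myocardin. Cultured smooth muscle cells lose much of this program, and activated fibroblasts gain part of it, so Acta2 and Tagln mark both cell types whereas Myh11 and Cnn1 are kept more to differentiated smooth muscle. Fibroblasts build the collagen matrix, for which lumican and decorin, the small leucine-rich proteoglycans encoded by Lum and Dcn, control fibril assembly. PDGF released by endothelial cells and platelets acts through the receptors encoded by Pdgfra and Pdgfrb on fibroblasts, pericytes and smooth muscle. In liver, hepatic stellate cells carry Des, Pdgfrb, Lum and Dcn, and acquire Acta2 when they turn into matrix-producing myofibroblasts.

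Promoters are shown for Acta2, the contractile gene bright in the cultures, and for Cnn1, the contractile gene with the lowest adjusted p in liver by the probe set that stands for each gene. They come from RefSeq (build GRCm38.p6), which held an entry for 4 of the 10 genes here (Acta2, Cnn1, Des and Pdgfra), and run from 250 bases before to 50 bases after the start of transcription. Capitals mark matches to the CArG box with 1 base of its A/T centre free, or to the MCAT element, written CATTCC and searched on both strands. The TATA element, written TATAAA and searched on the strand of the gene, matched in neither. The Acta2 promoter lies at chr19:34255324-34255623 on the minus strand and the Cnn1 promoter at chr9:22099003-22099302 on the plus strand.
Acta2: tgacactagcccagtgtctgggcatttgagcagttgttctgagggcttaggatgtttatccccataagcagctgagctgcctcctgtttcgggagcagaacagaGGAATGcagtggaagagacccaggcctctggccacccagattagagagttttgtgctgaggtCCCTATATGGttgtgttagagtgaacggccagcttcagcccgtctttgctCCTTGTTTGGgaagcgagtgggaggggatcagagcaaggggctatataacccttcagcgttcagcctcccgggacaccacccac
Cnn1: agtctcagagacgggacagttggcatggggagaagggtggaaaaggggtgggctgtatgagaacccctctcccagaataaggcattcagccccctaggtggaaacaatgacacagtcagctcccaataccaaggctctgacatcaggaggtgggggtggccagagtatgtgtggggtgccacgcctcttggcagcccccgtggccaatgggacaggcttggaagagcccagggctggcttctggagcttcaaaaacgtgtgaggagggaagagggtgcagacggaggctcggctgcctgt
The Acta2 window held 2 such CArG matches, from base −84 to −75 and from −34 to −25, and an MCAT match from −146 to −141, none of which overlapped another. Of 32851 promoters of the same length, 9.984% held a CArG match with 1 base free, 1.629% a match with none free, 14.66% an MCAT match and 8.319% TATAAA. The windows of Cnn1, Des and Pdgfra held none of these letters, which says nothing about which factors act there.

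Apoe gave liver signals of 19937 to 21510 on the 4 arrays labelled as having the gene and 79.8 to 305 on the 4 labelled as lacking it. The probe sets of Rcan1 do not check the Dscr-1 genotype, since no source used here gives their place relative to the deleted part. The purine salvage gene Hprt, singled out once values were known, was at 46.9 and 54.8 in WT livers, at 819.7 and 65.9 in the livers labelled Dscr-1 null, and at 884.2 to 1018.7 in the other 4, so the pair labelled Dscr-1 null did not share a level and every value of that pair rests on its labels. In the aortic cells Hprt gave log2 values of 6.90 and 6.73 in ApoE null cultures against 10.68 and 10.63 in double null cultures, and Xist, the RNA of the inactive X chromosome, gave 9.06 and 8.85 against 4.04 and 4.51. The sex of the mice is not given in the labels, and its part in the differences below was not tested. Xist split the aortic cultures exactly as genotype did, so a difference in sex could not be told apart from loss of Dscr-1 there. ApoE null replicate 1 of the livers had a mean correlation with the other liver arrays of 0.835, against 0.873 to 0.883 for the others. In the aortic cells that of double null replicate 2 was 0.965, against 0.980 to 0.982.

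In the aortic cultures every one of 16 endothelial markers lay above its array's median on all 4 arrays, and their summed level (values taken out of the log2 scale) ran from 28215 to 32948. Of the smooth muscle genes Acta2, Tagln and Des lay above the median on all 4 arrays by the probe set standing for each. Cnn1 and both probe sets of Myh11 lay below it on all 4. All 5 fibroblast genes lay above the median on all 4 arrays, again by the probe set standing for each. Acta2 and Pdgfra did so by 1 of 3 probe sets and Des by 1 of 2. The other probe sets of these genes lay below the median on all 4 arrays. Probe sets above the array median on 2 or more arrays of a tissue were tested, and 8 of the 10 genes passed this filter in the cultures. In liver all 8 hepatocyte markers with a probe set lay above the median on all 8 arrays, and 9 of the 10 genes passed the filter, all but Myh11. The smooth muscle label therefore rested on Acta2, Tagln and Des in the cultures, and the most restricted smooth muscle gene, Myh11, was dim in both tissues.

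The first question is whether smooth muscle and fibroblast transcripts were in the aortic endothelial cultures, and whether they differed between genotypes. Most of these genes were steady between the ApoE null cultures and far apart between the double null cultures. No gene of the 10 passed the test between genotypes, by limma with Benjamini-Hochberg adjustment over all probe sets above the filter. Of all 11650 genes tested, 0.0172% passed, namely Hprt and Xist. At an unadjusted p under 0.05, Dcn was the only one of the 8 tested, beside 4.95% of all genes. By the t-test of the methods no gene of the 10 passed after adjustment, and 1 of the 8 had an unadjusted p under 0.05. In RNA from a culture, fewer cells of a type and less RNA per cell cannot be told apart. Aortic values are the deposited log2 values. The arrays fall in 2 runs named in the labels, and run 1 holds replicate 1 and run 2 replicate 2 of both genotypes.

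**Figure D1:**
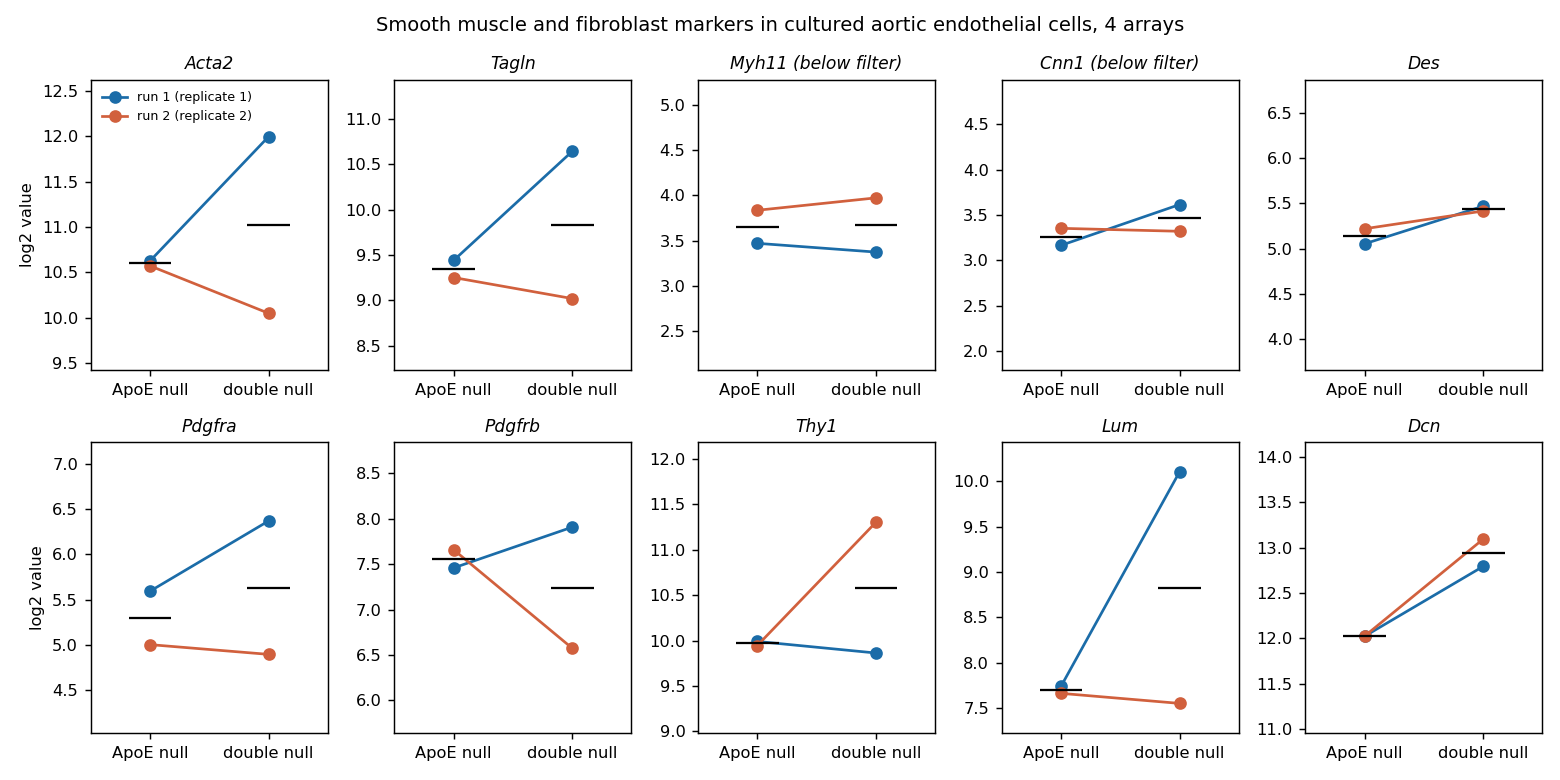
Log2 value of each of the 10 genes (vertical axis, a window of equal height in each panel) in ApoE null and double null aortic cultures. Points are arrays, lines join the arrays of 1 run and black bars are genotype means. Acta2, Tagln and Lum rise from left to right in run 1 (differences 1.37, 1.20 and 2.36) and do not in run 2 (−0.52, −0.23 and −0.11), whereas Dcn rises in both (0.77 and 1.07).

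Acta2, the smooth muscle actin whose promoter is printed above, gave log2 values of 10.63 and 10.57 in ApoE null cultures against 11.99 and 10.05 in double null cultures. Its probe set, with the suffix _s_at, is one whose probes can match transcripts of related genes, and the other actins were not separated from it. Tagln, which encodes the actin-binding protein transgelin, gave 9.44 and 9.25 against 10.64 and 9.02. Des, which encodes the intermediate filament protein desmin, gave 5.05 and 5.22 against 5.47 and 5.41. For Acta2 and Tagln the double null arrays were at once the highest and the lowest of the 4, and for Des both double null arrays lay above both ApoE null arrays. The double null minus ApoE null differences were 0.42 ± 0.64 (SE) for Acta2, 0.48 ± 0.54 for Tagln and 0.30 ± 0.15 for Des, each with an adjusted p of 1 from limma. Cnn1, the gene of calponin, stayed between 3.17 and 3.62 and Myh11, the smooth muscle myosin heavy chain, between 3.37 and 3.97, where values lie below the median of each array.

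Lum gave 7.74 and 7.66 in ApoE null cultures against 10.10 and 7.55 in double null cultures, so that 1 double null array stood 2.36 above its partner in the run and the other did not rise. Dcn gave 12.02 and 12.02 against 12.79 and 13.09. Its second probe set gave 4.89 and 4.91 against 5.79 and 6.63. By both probe sets of Dcn both double null arrays lay above both ApoE null arrays. The Dcn difference was 0.92 ± 0.17 (SE, adjusted p = 0.686 from limma), and by the second probe set 1.31 ± 0.30 (adjusted p = 0.745). Dcn thus had the lowest p of these genes in the cultures and did not pass.

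Thy1, a glycoprotein anchored at the surface of fibroblasts and also found on T cells and neurons, gave 9.99 and 9.95 in ApoE null cultures against 9.86 and 11.30 in double null cultures. The high array was double null replicate 2, the one in which Acta2, Tagln and Lum were lowest. Pdgfrb, the receptor of pericytes and smooth muscle, gave 7.46 and 7.66 against 7.91 and 6.57, and Pdgfra, the receptor of fibroblasts, 5.59 and 5.005 against 6.37 and 4.90. Both receptors were highest on double null replicate 1 and lowest on double null replicate 2. The differences between genotypes were 1.13 ± 0.83 (SE) for Lum, 0.61 ± 0.48 for Thy1, 0.33 ± 0.52 for Pdgfra and −0.32 ± 0.45 for Pdgfrb, each with an adjusted p of 1 from limma.

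Over the 8 genes tested, 7 were higher and 1, Pdgfrb, was lower in double null cultures, with a median log2 difference of 0.45 beside −0.0090 over all genes tested. Their groups did not overlap for 2 of 8, Dcn and Des, both of them higher. Of all genes 31% did not overlap between the groups, and 16.8% had both double null arrays above both ApoE null arrays.

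Within runs the differences pointed different ways. In run 1, 7 of the 8 were higher in the double null culture and 3 of them (Lum, Acta2 and Tagln) by over 1 on the log2 scale, beside 1.1% of all genes. In run 2, 3 of the 8 were higher, 2 of them (Thy1 and Dcn) by over 1, beside 2.21% of all genes, and Pdgfrb was lower by over 1, beside 3.49%. In run 1 none of the 8 was lower by over 1, beside 0.858%. The sign was opposite in the 2 runs for 6 of the 8 (75%), beside 43.6% of all genes. With the run as a block in the fit, which the shared runs and a correlation of 0.297 between the deviations of same-numbered arrays called for, no gene of the 10 passed, and 0 of all genes did where 2 had without it. The median differences of the 8 were 0.77 in run 1 and −0.11 in run 2.

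**Figure D2:**
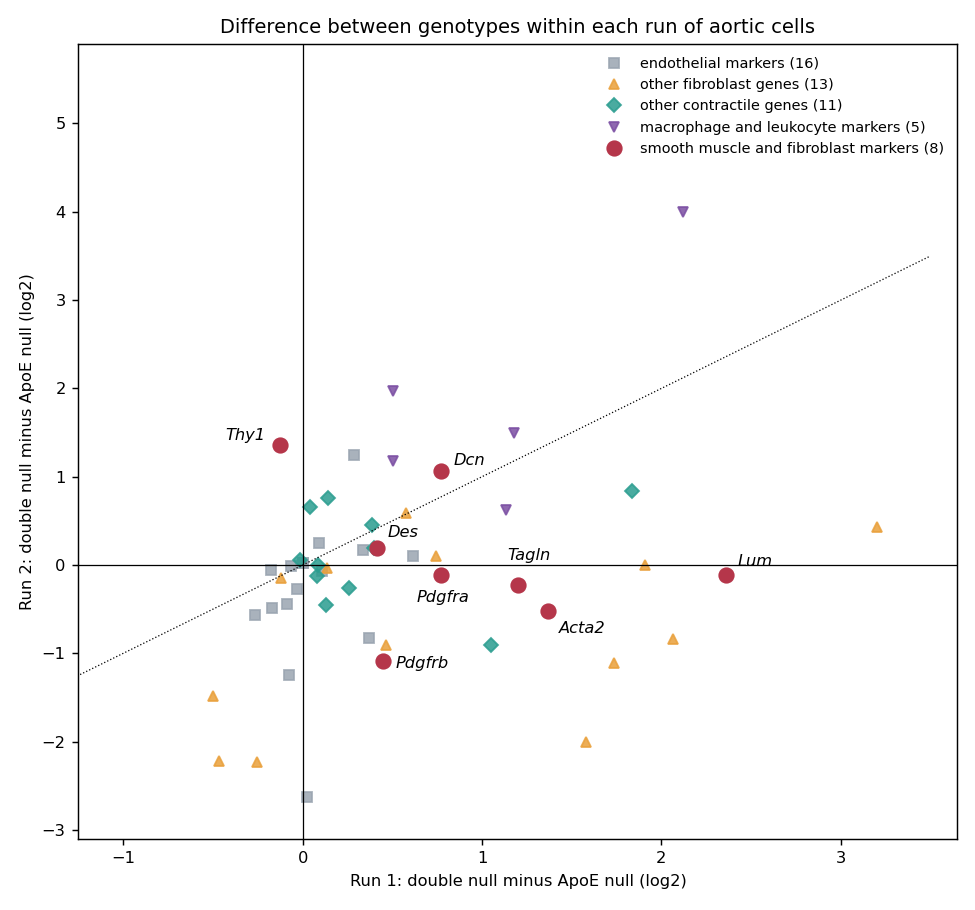
Double null minus ApoE null on the log2 scale in run 1 (horizontal) and run 2 (vertical) for the markers tested in aortic cultures. Each point is a gene, colours and shapes mark gene lists, and the dotted line is where both runs give the same difference. Lum, Acta2, Tagln, Pdgfra and Pdgfrb lie to the lower right, Thy1 to the upper left, Dcn and Des to the upper right, and the 5 macrophage and leukocyte markers are above 0 in both runs.

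The distance between the 2 double null arrays was large for most of these genes. The value of replicate 2 minus that of replicate 1 was −2.55 for Lum, −1.94 for Acta2, −1.62 for Tagln, −1.47 for Pdgfra, −1.33 for Pdgfrb and 1.44 for Thy1. These 6 distances lay above those of 96.74% (Pdgfrb) to 99.53% (Lum) of the 11650 genes. Dcn, at 0.30, and Des, at −0.05, exceeded 57.57% and 12% of the genes. The median distance of the 8 genes was 1.45 between the double null arrays and 0.12 between the ApoE null arrays, beside 0.253 and 0.142 for all genes. Pdgfra was not steady between the ApoE null arrays, where its distance of −0.59 exceeded 98.45% of the genes.

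Which genes passed depended on which double null culture was used. When double null replicate 2 was left out, 5 of the 8 passed by limma, all higher, beside 4% of all genes (466). They were Lum (2.40, adjusted p = 1.96e-11), Acta2 (1.40, adjusted p = 3.86e-06), Tagln (1.295), Pdgfra (1.07) and Dcn (0.77). When replicate 1 was left out instead, 4 of the 8 passed, beside 16.9% of all genes (1966). Thy1 (1.33, adjusted p = 2.24e-06) and Dcn (1.07, adjusted p = 8.62e-05) were higher, and Pdgfrb (−0.98, adjusted p = 0.000315) and Acta2 (−0.55, adjusted p = 0.0493) lower. Acta2 passed in opposite directions and Dcn was the only one that passed in the same direction both ways. The lone array is assumed in these fits to vary like the ApoE null pair, so they compare 1 culture with 2. Without either ApoE null array none of the 8 passed.

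Genes that act beside these markers were read from lists chosen by function. None of them passed the test in the cultures. Of 11 other contractile genes tested, 8 were higher and 3 lower (median 0.07). Tpm2, a tropomyosin of smooth muscle thin filaments, gave 6.55 and 6.44 in ApoE null cultures against 8.39 and 7.28 in double null cultures (difference 1.34 ± 0.38, SE, adjusted p = 0.902 from limma). Smtn, the gene of the actin-associated protein smoothelin, gave 8.21 and 8.20 against 8.60 and 8.65. Both were above the ApoE null arrays in both double null cultures. Myl9, a myosin light chain, differed by 1.05 in run 1 and −0.91 in run 2, as Acta2 and Tagln did in sign.

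Of 13 other fibroblast genes tested, 7 were higher and 6 lower (median 0.05). In run 1, 5 of them (38.5%) were higher in the double null culture by over 1 and in run 2, 5 (38.5%) were lower by over 1. Postn, the gene of the matrix protein periostin, gave 5.14 and 5.09 in ApoE null cultures against 8.34 and 5.51 in double null cultures. Col1a2 and Col3a1, chains of the fibrillar collagens, differed by 2.07 and 1.58 in run 1 and by −0.84 and −2.01 in run 2. Lox, the enzyme that cross-links collagen, gave 9.40 and 9.17 against 8.94 and 6.94, so that both double null arrays were below both others (adjusted p = 1). The small leucine-rich proteoglycan Bgn, a close relative of Dcn, gave 12.94 and 12.99 against 12.78 and 10.56, the opposite sign to Dcn in both runs. The summed level of all 16 other fibroblast genes with a probe set was 7728 to 8383 in ApoE null cultures and 9293 and 2841 in double null cultures.

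Of the PDGF ligands Pdgfb, which endothelial cells secrete and which recruits cells carrying Pdgfrb, gave 10.20 and 10.11 in ApoE null cultures against 10.87 and 10.72 in double null cultures (difference 0.64, adjusted p = 0.762 from limma). The 4 ligands split into 2 higher and 2 lower. Of 12 regulators of the contractile program tested, 3 were higher and 9 lower (median −0.14). Tbx18, a factor of developing mural cells, had the lowest p of them and differed by −1.001, and Gata6, a transcription factor of vascular smooth muscle, by −1.02 (adjusted p = 1 from limma for each). Srf, the gene of serum response factor, gave 7.11 and 6.77 against 7.31 and 6.92, whose groups overlap. Of 4 pericyte genes 3 were higher, and of 5 genes of hepatic stellate cells 3 were higher and 2 lower. Cspg4, the pericyte proteoglycan NG2, differed by 1.08 in run 1 and by 0.11 in run 2. Reln, a secreted glycoprotein of stellate cells, differed by 2.14 in run 1 and by −0.37 in run 2.

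Other cell types were read in the same way. Of 10 macrophage and leukocyte markers 5 passed the filter, and all 5 were higher in the double null culture of both runs. None of them passed the adjusted threshold by limma (lowest adjusted p = 0.357, for Csf1r). At an unadjusted p under 0.05 there were 5 of 5, beside 4.95% of all genes. Lyz2, the macrophage lysozyme, gave 5.33 and 5.48 in ApoE null cultures against 7.46 and 9.47 in double null cultures. The summed level of all 10 was 415 to 444 in ApoE null cultures against 811 and 1676 in double null cultures. The leukocyte marker Ptprc and the macrophage marker Adgre1 did not pass the filter in the cultures. Of 8 hepatocyte markers with a probe set 4 passed the filter, and the summed level of all 8 was 160 to 238. Of 9 striated muscle markers 3 passed it, and the summed level of all 9 was 141 to 160. Of the mesothelial and biliary markers 2 passed the filter, and of the adipocyte markers 0. The summed level of the 5 smooth muscle genes was 2193 to 2328 in ApoE null cultures and 5743 and 1647 in double null cultures. That of the 5 fibroblast genes was 5588 to 5616 against 9446 and 11573. Dcn, the brightest of the 5, made up most of the fibroblast sum on every array. On double null replicate 2 Dcn and Thy1 were at their highest and Lum, Pdgfra and Pdgfrb at their lowest. Among the 16 endothelial markers 7 were higher and 9 lower. In run 2 the double null culture was higher for 6 of them (median −0.06), and 3 differed by over 1, namely Vwf, the clotting factor stored in endothelial cells (−2.63), Eng, a TGF-beta coreceptor (−1.24), and Robo4, an endothelial guidance receptor (1.251). The part of macrophage transcripts and of these endothelial levels in the differences of the smooth muscle and fibroblast genes was not tested.

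The second question is whether these genes differed between the genotypes of liver. None of the 9 genes tested passed in any of 7 comparisons by limma, among 14855 genes tested. Acta2, Pdgfrb, Lum and the brighter probe set of Dcn were above the median of all 8 arrays, and Acta2 showed no step between genotypes. In the Dscr-1 lacking livers Cnn1 had a lower mean (log2 difference −1.06) and Thy1 a higher one (1.07), neither past the threshold. The sizes depended on the offset added to the signal, and were −2.58 and 2.08 with an offset of 1 and −0.41 and 0.47 with an offset of 64. Cnn1 passed the filter only through arrays with intact Dscr-1, where it was high, so its lower level is a description. Thy1 passed the filter mostly through arrays lacking Dscr-1. Liver values below are linear signals that the authors brought to a mean of 100 on each array, and differences are on the scale of log2 of the signal plus 16, which understates the differences of dim probe sets. Apoe and Ang, a ribonuclease gene, were the genes that passed among all genes in liver.

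**Figure D3:**
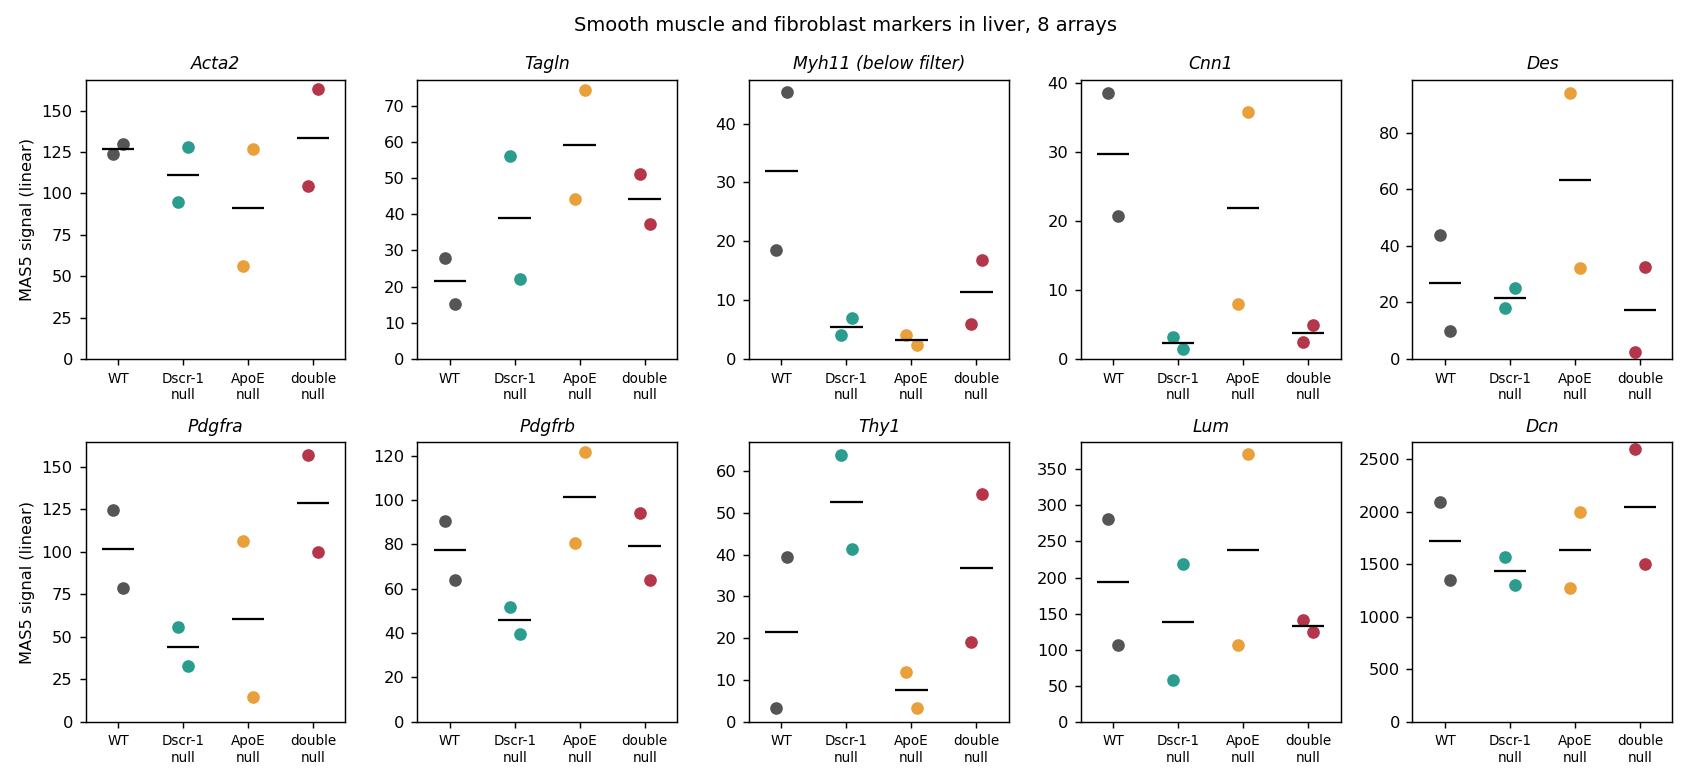
Linear MAS5 signal (vertical axis from 0) of each of the 10 genes in liver, with 2 arrays per genotype as points and the mean as a bar. Cnn1 signals are 1.5 to 5 in the Dscr-1 null and double null livers and 7.9 to 38.6 in the others, whereas Acta2 (56.1 to 163.3) overlaps across genotypes.

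Among the smooth muscle genes, Acta2 gave 124 and 130.1 in WT, 94.6 and 127.8 in Dscr-1 null, 56.1 and 126.6 in ApoE null, with 104.2 and 163.3 for double null. The lowest value was that of ApoE null replicate 1, the array that correlated least with the others, and the groups overlap. Tagln gave 27.9 and 15.1 in WT, 56.1 and 22 in Dscr-1 null, 44.3 and 74.2 in ApoE null, with 51.1 and 37.3 for double null. Both ApoE null and both double null arrays were above both WT arrays for Tagln, with a difference of 0.997 ± 0.46 (SE, adjusted p = 0.793 from limma) for ApoE null, but Tagln passed the filter only through arrays of the mutants, so the direction is a description. Des, which stellate cells also carry, gave 43.7 and 10 in WT, 18.1 and 25.1 in Dscr-1 null, 94.2 and 32.3 in ApoE null, with 2.6 and 32.4 for double null. The second Des probe set did not give the same order, with 9 and 9.4, 12.2 and 41, 7.2 and 6.5, and 39.5 and 26.4, so that all 4 Dscr-1 lacking arrays were above the other 4 (difference 0.88). That probe set passed the filter only through 2 Dscr-1 lacking arrays, so this is a description.

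Cnn1, whose promoter is printed above, gave 38.6 and 20.7 in WT and 7.9 and 35.8 in ApoE null livers, against 3.2 and 1.5 in Dscr-1 null and 2.5 and 5 in double null livers. All 4 Dscr-1 lacking arrays were below the other 4. The difference was −1.06 ± 0.33 (SE, adjusted p = 0.722 from limma), and −0.78 to −1.34 when single arrays were left out. Against WT alone it was −1.29 in Dscr-1 null (adjusted p = 0.970) and −1.18 in double null livers (adjusted p = 0.778). The signals of the low group lie below the array medians of 32.2 to 44.7, and Cnn1 exceeded the median on 2 of 8 arrays, WT replicate 1 and ApoE null replicate 2, both with intact Dscr-1. Myh11, below the filter, gave 18.5 and 45.3 in WT livers and 2.3 to 16.9 on the 6 arrays of the mutants.

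Of the fibroblast genes, Pdgfra gave 124.6 and 78.9 in WT, 55.5 and 32.5 in Dscr-1 null, 106.3 and 14.5 in ApoE null, with 157.2 and 100 for double null. Both Dscr-1 null arrays were below both WT arrays. By this probe set loss of Dscr-1 went with a higher mean on the ApoE null background and a lower one with ApoE intact. The interaction was 2.19 ± 0.92 (SE, adjusted p = 0.902 from limma) and did not pass, and leaving out ApoE null replicate 2 gave 1.18 and leaving out replicate 1 gave 3.19. A second Pdgfra probe set gave 23.4 and 2.4, 8.4 and 30, 3.9 and 5.8, and 50.1 and 59.8 in the same order of genotypes, and passed the filter only through the double null pair, where it was highest. Pdgfrb gave 90.7 and 64.1 in WT, 51.9 and 39.4 in Dscr-1 null, 80.6 and 121.8 in ApoE null, with 94.2 and 64 for double null. Both Dscr-1 null arrays were below all 6 others, with a difference from WT of −0.59 ± 0.40 (SE).

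Thy1 gave 3.3 and 39.4 in WT, 63.8 and 41.4 in Dscr-1 null, 11.8 and 3.3 in ApoE null, with 19 and 54.4 for double null. It exceeded the array median on 4 of 8 arrays, namely both Dscr-1 null arrays, double null replicate 2 and WT replicate 2. The other values, 3.3 to 19, lay below the medians, so Thy1 passed the filter mostly through Dscr-1 lacking arrays, where it was high. Its Dscr-1 lacking minus Dscr-1 intact difference was 1.07 ± 0.42 (SE, adjusted p = 0.804 from limma), with 1 WT array inside the range of the Dscr-1 lacking arrays. It was 0.69 without WT replicate 1 and 0.82 to 1.45 without any other single array. Lum gave 281.4 and 106.4 in WT, 57.4 and 218.8 in Dscr-1 null, 105.9 and 371.7 in ApoE null, with 140.6 and 124.4 for double null, and its groups overlap. The arrays of 1 genotype differed more for Lum than the means of the genotypes did.

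Dcn was read by 2 probe sets that did not give the same picture. The brighter one gave 2091.3 and 1352.9 in WT, 1566.5 and 1296.5 in Dscr-1 null, 1271.7 and 2000.1 in ApoE null, with 2591.7 and 1499.3 for double null, whose ranges overlap. The dimmer one gave 40.8 and 46.5 in WT and 57.1 and 52.2 in Dscr-1 null livers, against 7.4 and 26.8 for ApoE null and 6.8 and 5.2 for double null. By the dimmer probe set all 4 ApoE lacking arrays were below the other 4 (difference −1.298 ± 0.28, SE), which is a description, since it passed the filter only through the 4 arrays with ApoE. The brighter one differed by 0.19 ± 0.32. The aortic cultures all lacked ApoE, and there both probe sets were higher in double null than in ApoE null cells. Between double null and ApoE null livers the brighter one differed by 0.30 and the dimmer one by −0.53.

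**Figure D4:**
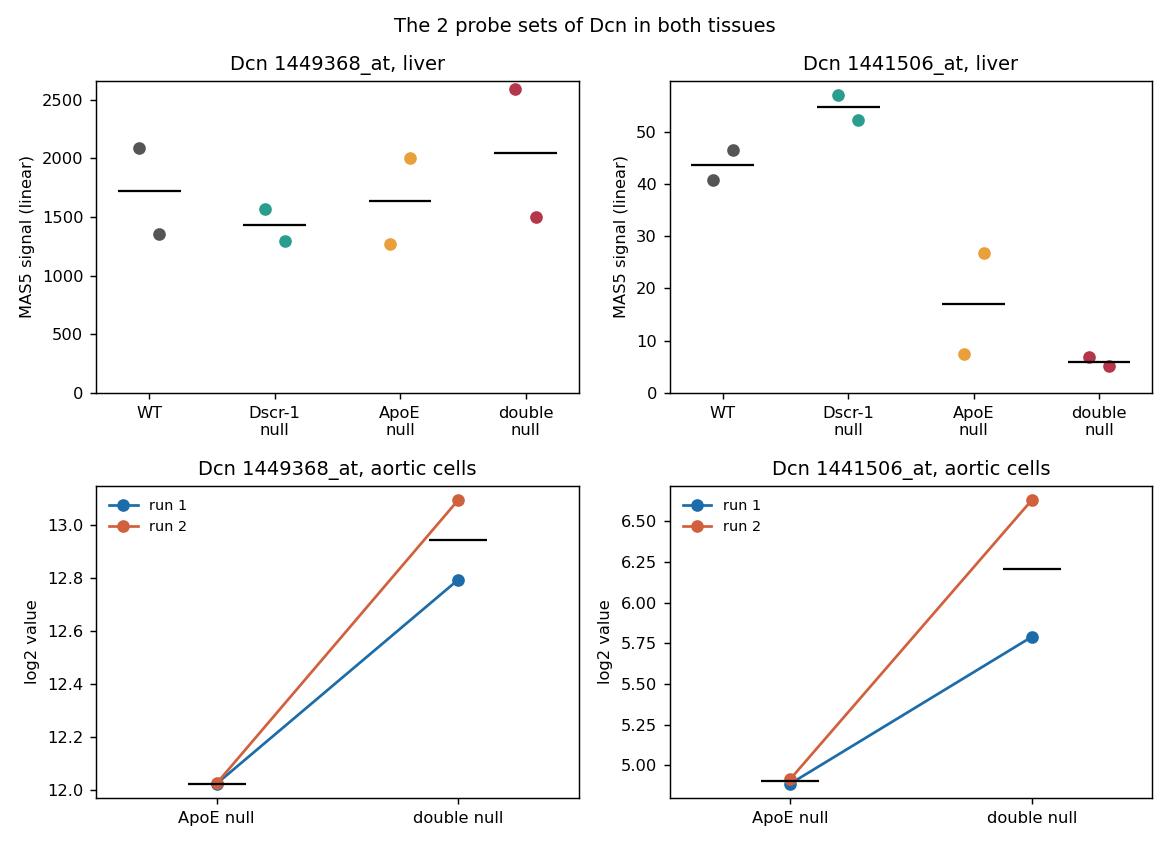
The 2 probe sets of Dcn in liver (upper row, linear MAS5 signal from 0) and in aortic cultures (lower row, log2 value, lines join the arrays of 1 run). Points are arrays and bars are means. The probe set on the right is lower on all 4 ApoE lacking liver arrays (5.2 to 26.8 against 40.8 to 57.1), which the one on the left is not, and both are higher in double null than in ApoE null cultures.

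Between Dscr-1 null and WT livers 2 were higher and 7 lower (median −0.24, all genes −0.013) and 0 of 9 passed, beside 0.00673% of all genes. Between ApoE null and WT livers 4 were higher and 5 lower (median −0.08) and 0 passed, beside 0.0135%. Between double null and WT livers 6 were higher and 3 lower (median 0.04) and 0 passed, beside 0.0135%. Between double null and ApoE null livers 4 were higher and 5 lower (median −0.30) and 0 passed, as did 0% of all genes. The first 3 of these comparisons share the WT arrays.

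The 4 arrays lacking ApoE were also set against the 4 with ApoE, which gave 6 higher and 3 lower (median 0.18) and 0 passing, beside 0.00673% of all genes. The 4 arrays lacking Dscr-1 against the other 4 gave 5 higher and 4 lower (median 0.03) and 0 passing, as did 0% of all genes, and the interaction of both losses 0 passing, again with 0% of all genes. At an unadjusted p under 0.05 there was Cnn1 between Dscr-1 null and WT (3.84% of all genes), none between ApoE null and WT (5.74%), Cnn1 between double null and WT (5.32%), none between double null and ApoE null (5.32%), none for loss of ApoE (5.74%), Cnn1 and Thy1 for loss of Dscr-1 (4.62%) and Pdgfra for the interaction (4.4%). Cnn1 passed the filter only through Dscr-1 intact arrays and Thy1 mostly through Dscr-1 lacking arrays, where each was high. Their place among these genes is therefore not independent of the filter. By the t-test of the methods, which was not run for the interaction, none of the 9 passed after adjustment in any other comparison. At an unadjusted p under 0.05 that test gave 1 of the 9 between Dscr-1 null and WT, 1 for loss of Dscr-1 and 0 in the others it covered.

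**Figure D5:**
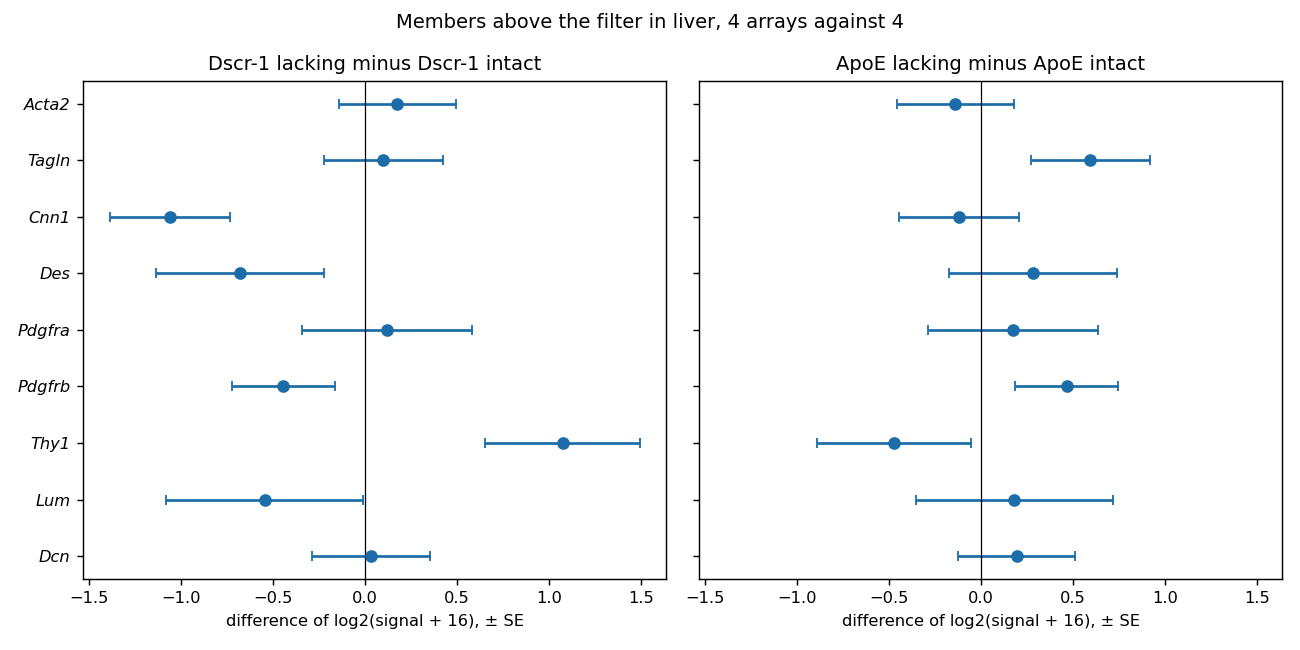
Difference of log2 of the signal plus 16 (points) with its standard error from limma (bars) for the 9 genes above the filter in liver, for loss of Dscr-1 (left) and loss of ApoE (right), 4 arrays against 4. Cnn1 (−1.06) and Thy1 (1.07) lie farthest from 0 for loss of Dscr-1, and Tagln (0.59) does for loss of ApoE.

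The genotypes did not overlap for 4 of 9 genes between Dscr-1 null and WT (Thy1 above, Cnn1, Pdgfra and Pdgfrb below), beside 33.1% of all genes. They did not overlap for Tagln between ApoE null and WT (34% of all genes), for Tagln and Cnn1 between double null and WT (38.2%), and for Thy1 and Cnn1 between double null and ApoE null (32.2%). Of the comparisons of 4 arrays with 4, none of the 9 was apart for loss of ApoE (3.86% of all genes) and Cnn1 was for loss of Dscr-1 (2.85%), which is not independent of the filter that it passed through 2 Dscr-1 intact arrays. The range of the 4 genotype means was wider than the largest gap within a genotype for 4 of the 9 genes (44.44%), beside 26.97% of all genes. They were Tagln, Cnn1, Pdgfrb and Thy1. Tagln and Cnn1 passed the filter only, and Thy1 mostly, through groups where they were high, so this share is a description. The median SD within a genotype was 0.451 on the log2 scale, beside 0.452 for all genes.

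Other genes of the matrix and contractile lists in liver are given for the comparisons of 4 arrays with 4, and none passed. For loss of ApoE, 11 of 14 other fibroblast genes were higher and 3 lower (median 0.30, from −0.73 to 0.97). At an unadjusted p under 0.05 by limma, 2 of the 14 were higher and 1 lower, beside 5.74% of all genes. Col1a1 differed by 0.97 ± 0.41 (SE) and Col3a1, the collagen of young scars and reticular fibres, by 0.72 ± 0.32. Among 15 other contractile genes 5 were higher and 10 lower (median −0.20). Of 12 stellate cell genes 7 were higher and 5 lower (median 0.04). For loss of Dscr-1, 5 of 15 other contractile genes were higher and 10 lower (median −0.15) and 5 of 14 other fibroblast genes were higher and 9 lower (median −0.11).

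Of the PDGF ligands in liver, Pdgfd, which acts through Pdgfrb, gave 48.4 and 25.7 in WT, 23.7 and 11.3 in Dscr-1 null, 79.3 and 62 in ApoE null, with 3 and 5.3 for double null. All 4 Dscr-1 lacking arrays were below the other 4 (difference −1.38 ± 0.28, SE), but Pdgfd passed the filter only through 3 Dscr-1 intact arrays, so this is a description. A second Pdgfd probe set above the filter did not separate them, with 39.8 and 42.3, 36.3 and 6.3, 8.5 and 4, and 26.7 and 1.7 in the same order of genotypes. Myocd, the gene of myocardin, gave 15 and 3.8 in WT, 1.6 and 11.9 in Dscr-1 null, 63.7 and 56.3 in ApoE null, with 4 and 4.1 for double null. It passed the filter only through the ApoE null pair, and its other 6 values lay below the array medians. Hgf, the growth factor that stellate cells supply to hepatocytes, gave 12.3 and 9.9 in WT livers and 67.7 to 174.5 in the 6 mutant livers, the only arrays on which it exceeded the median. A second Hgf probe set above the filter gave 27.1 and 33.5 in WT and 18.2 to 72.6 in the mutant livers, which overlap.

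Of 9 macrophage and leukocyte markers tested in liver, 8 were higher in the livers lacking ApoE, and none passed the adjusted threshold. At an unadjusted p under 0.05 by limma there were 5 of them, beside 5.74% of all genes. Groups did not overlap between livers with and without ApoE for 3.86% of all genes. Lyz2 gave 268.7 to 333.1 on the 4 arrays with ApoE and 689.6 to 1557 on the 4 without it (difference 1.66 ± 0.28, SE, adjusted p = 0.535 from limma). The summed level of the list ran from 2815 to 3969 with ApoE and from 4088 to 9004 without it. That of the smooth muscle genes ran from 166 to 271 and that of the fibroblast genes, mostly Dcn, from 1576 to 3003 over all 8 arrays. Both ranges overlap between the livers with and without ApoE. The part of macrophage transcripts in the differences of these genes in liver was not tested.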

How the data were processed

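RNA was hybridized to Affymetrix mouse genome arrays, 8 from liver and 4 from cultured aortic endothelial cells, with no depth of reads involved, so the number of arrays limits the precision. Liver files as deposited hold MAS5 signal intensity on a linear scale, brought by the authors to a mean of 100 on each array, and the mean after trimming 2% at each end was 100 on each. The deposited aortic values are log2 values, with a normalization not given in the sources used here. Transcriptome Analysis Console is named in the submitters' notes. No further scaling was applied and tissues were not set side by side. Groups follow the sample titles. As the control of the aortic cells the series text gives Dscr-1 null mice, but titles and genotype labels give ApoE null mice, which were used.

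After 64 control probe sets were left out, 45037 remained, of which 34945 were annotated to 1 gene, 932 to several and 9160 to none. Of these 34741 were matched by Entrez identifier. Probe sets above their array's median on at least 2 arrays were tested (32005 in liver, 22927 in aortic cells). Limma version 3.58.1 in R version 4.3.3 was fitted per tissue (lmFit and eBayes, no trend, not robust) on log2 of the signal plus 16 in liver and on the deposited values in aortic cells, with a mean per genotype, and adjusted p-values are Benjamini-Hochberg over all probe sets tested, with a threshold of 0.05. Of several probe sets of a gene above the filter, that of highest mean log2 value stood for it. The fit was tested on simulated data. The 10 genes and 15 gene lists were chosen with earlier results of these data known. Named genes were all 10 markers, the genes of each list with the lowest p, and Apoe and Rcan1, while Hprt, Xist, Ang, Myl9, Col1a2, Srf, Ptprc, Adgre1 and, in the cultures, Col3a1, Vwf and Robo4 were chosen after their values were seen. Some listed genes, Fbn1, Plin1, Cfd, Trf and Serpina1e among them, are not analysed here. Same-numbered arrays share a run in the aortic cells, and their deviations correlated at 0.297. Alternatives were other offsets, filters, probe set rules, normalization, moderation, the t-test of the methods, a replicate block and leaving out each array.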

Additional observations from a re-analysis of the deposited data

Results flagged for a closer look

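The dimmer Dcn probe set went in opposite directions in the 2 tissues. Between double null and ApoE null aortic cultures it was higher by 1.31 on the log2 scale, with both double null arrays above both ApoE null arrays. Between double null and ApoE null livers it differed by −0.53, with both double null arrays below both ApoE null arrays, and all 4 of these signals below their array medians. Of all genes, 16.8% had both double null arrays above both ApoE null arrays in the cultures, and 15.7% had both below in liver. The difference between tissues was not tested. The brighter Dcn probe set differed by 0.92 in the cultures and by 0.30 in liver, where its groups overlap.

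In liver the same dimmer probe set differed by −0.53 for loss of Dscr-1 on the ApoE null background and by 0.24 for loss of Dscr-1 with ApoE intact. In each case the groups did not overlap, which held for 32.2% and 33.1% of all genes. On the ApoE null background the signals were 7.4 and 26.8 against 6.8 and 5.2 for double null. The interaction did not pass (−0.77 from limma, with an adjusted p of 1).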

How the results depend on the processing

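The count of the 10 genes past the threshold was unchanged in 127 of 129 alternatives and in all 118 of liver. In aortic cells it ranged from 0 to 5 when single arrays were left out, as given in the report. Of 216 alternatives of 17 marker differences, 198 kept direction and side of the threshold, 11 newly passed in the same direction and 7 reversed, all of the last when a double null array was left out. Without double null replicate 1 the reversed values were −0.55 for Acta2, which also passed (adjusted p = 0.0493 from limma), −0.33 for Tagln, −0.15 for Lum and −0.40 for Pdgfra, and without replicate 2 they were −0.10 for Thy1, 0.35 for Pdgfrb and 0.26 for its second probe set. The values that newly passed in the same direction were, without replicate 1, 1.33 for Thy1, 1.07 for Dcn (1.73 by its second probe set), −0.98 for Pdgfrb and −0.63 for its second probe set, and without replicate 2, 2.40 for Lum, 1.396 for Acta2, 1.295 for Tagln, 1.07 for Pdgfra and 0.77 for Dcn (0.89 by its second probe set). The offset moved sizes by over 1.5 times in liver. With offsets of 1 and 64 the difference was −2.58 and −0.41 for Cnn1, 2.08 and 0.47 for Thy1, −2.27 and −0.59 for the dimmer Dcn probe set, and 1.65 and 0.37 for the second Des probe set. In liver the replicate numbers did not pair the arrays (correlations of −0.00155 to 0.0293), and the replicate block changed no call of the 10 genes (Cnn1 for loss of Dscr-1 −1.06, adjusted p = 0.777). In aortic cells the block lowered the count of all genes from 2 to 0. Counts of all genes past the threshold were less stable, and the cause was not tested. For the mutants against WT, in the order of Dscr-1 loss, ApoE loss and both, the main counts were 1, 2 and 2. They were 0, 0 and 1 with an offset of 1, 5, 13 and 23 with an offset of 64, 3, 7 and 16 with probe sets above the median on every array, 0, 1 and 1 with the mean of all probe sets of a gene, 19, 40 and 77 with a trend and robust moderation, and 0, 0 and 0 by the t-test of the methods. Leaving out single arrays gave 0 to 1, 0 to 2 and 0 to 2. For loss of ApoE (main count 1) they were 29 with an offset of 64, 21 on every array, 70 with trend and robust moderation, 0 by the t-test and 1 to 2 without single arrays. For loss of Dscr-1 and for the interaction (main counts 0 and 0) they were 3 and 2 with an offset of 64, 1 and 1 on every array, and 14 and 5 with trend and robust moderation, which also gave 2 between double null and ApoE null livers. In aortic cells (main count 2) there was 1 on every array, 0 by the t-test and 0 to 1966 without single arrays.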
